A study of Mus musculus with 4 samples.

Results

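Alternative activation is the state that macrophages enter under the cytokines IL-4 and IL-13, and 10 genes that mark it or carry its signal were followed here. They are Arg1, Mrc1, Retnla, Chil3, Chil1, Mgl2, Il4ra, Stat6, Irf4 and Pdcd1lg2, found in the table by symbol, with no measured value in the rule. Of these, 9 had a row among the 16375 genes of the expression table, and Retnla had none and is not analysed here. All 9 passed the filter on low values, a mean of at least 100 sequenced fragments per library, which 11250 genes passed.

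RNA sequencing was performed on macrophages grown from mouse bone marrow in M-CSF, a macrophage growth factor, at 30 ng/mL for 4 d. Wild-type cells (WT) and cells of lncLy6c knockout mice (LNCKO) were left untreated or received butyrate, a short-chain fatty acid made by gut bacteria, at 500 µM for 24 h. The knockout was made on the C57BL/6J background by Cas9 cuts upstream of exon 1 and downstream of exon 2 of the long noncoding RNA gene in zygotes, so it is not limited to macrophages. According to the methods, C57BL/6 mice, male or female, were obtained at 4 to 6 weeks of age, and the age of the knockout mice is not given in the sources used here. The labels and methods name no IL-4 or IL-13 in these cultures. These make the groups WT control and WT butyrate, and LNCKO control and LNCKO butyrate, each with 1 library, so no difference could be tested and every ratio compares 2 libraries. Where 4 values follow each other, they stand for the groups in the order just named.

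IL-4 and IL-13 bind receptors that contain the IL-4 receptor alpha chain, encoded by Il4ra, and Janus kinases on these receptors phosphorylate STAT6. Phosphorylated STAT6 enters the nucleus, binds paired TTC and GAA half-sites spaced by 4 bases, and with factors such as IRF4 raises the genes of the effector proteins. Arginase 1 (Arg1) splits arginine into ornithine and urea, CD206 (Mrc1) and the lectin Mgl2 bind sugars, Chil3 (Ym1) and Chil1 are chitinase-like proteins, Retnla (RELM alpha) is a secreted resistin-like protein, and PD-L2 (Pdcd1lg2) is a ligand of the inhibitory receptor PD-1. In the gut, macrophages of this kind are known for tissue repair and for defence against worms.

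Promoter windows, from 250 bases before to 50 after the gene start, were taken from RefSeq on GRCm38.p6 for 9 of the 10 genes, all but Arg1. The STAT6-type motif TTC and GAA with 4 bases between, on either strand, was found in 2 of them, Retnla and Pdcd1lg2, and in 6.95% of 32851 windows of all promoters. The related motif of TTC and GAA with 3 bases between was found in the Chil3 window and in 8.3% of all windows. Both motifs read the same on either strand and do not overlap each other in these windows. A GC box, GGGCGG on either strand, was found in the windows of Il4ra, Irf4 and Mrc1 and in 35.7% of all windows. The macrophage factor motif GAGGAAGT, the core of PU.1 sites, was found on the minus strand of the Retnla window and in 3.2% of all windows. The first 3 stretches below hold the matches to paired half-sites in capitals. Chil1 and Irf4 are shown because their ratios with butyrate in WT were the farthest from 1, Chil1 higher and Irf4 lower. Retnla lies at chr16:48842424-48842513 on the plus strand, Pdcd1lg2 at chr19:29410797-29410886 on the plus strand, Chil3 at chr3:106167687-106167776 on the minus strand, Chil1 at chr1:134182036-134182155 on the plus strand, and Irf4 at chr13:30749113-30749225 on the plus strand with its GC boxes in capitals. The match begins 145 bases before the start of Retnla, 82 bases before that of Pdcd1lg2 and 172 bases before that of Chil3.
Retnla: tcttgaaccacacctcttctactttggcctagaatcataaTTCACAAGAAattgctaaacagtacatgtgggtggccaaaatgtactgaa
Pdcd1lg2: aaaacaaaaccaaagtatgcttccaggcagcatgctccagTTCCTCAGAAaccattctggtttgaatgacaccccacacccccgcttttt
Chil3: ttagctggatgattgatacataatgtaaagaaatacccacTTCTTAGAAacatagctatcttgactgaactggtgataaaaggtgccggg
Chil1: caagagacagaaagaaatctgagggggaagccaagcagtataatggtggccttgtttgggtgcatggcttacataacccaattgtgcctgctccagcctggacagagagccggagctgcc
Irf4: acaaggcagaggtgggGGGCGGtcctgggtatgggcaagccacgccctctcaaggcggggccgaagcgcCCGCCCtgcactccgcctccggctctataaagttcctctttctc
None of the 4 motifs was found in the Chil1 window. These matches describe letters only, since binding was not measured in these libraries.

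Depth was even, from 53363944 to 65521713 fragments per library, so counting error was small for most of these genes. FPKM, fragments scaled by gene length and by the library total, were deposited on the whole genomic span of each gene, and for levels between genes the fragments were set per kilobase of exon and 1000000 fragments of the library instead, here called the exon level. By its mean exon level over the 4 libraries, Chil3 stood first at 494, rank 58 of all genes listed. Stat6 at 58.8 and Il4ra at 55.6 followed, then Arg1 at 34.1, Mrc1 at 24.2, Chil1 at 18.3 and Irf4 at 13.5. Mgl2 at 3.74 and Pdcd1lg2 at 1.97 were last. Chil3 was above Stat6, Irf4 above Mgl2 and Mgl2 above Pdcd1lg2 in 4 of 4 libraries. Other neighbours changed places, for Arg1 was above Mrc1 in 2 of 4 libraries, in LNCKO alone, and Chil1 above Irf4 in 2 of 4 libraries.

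**Figure D1:**
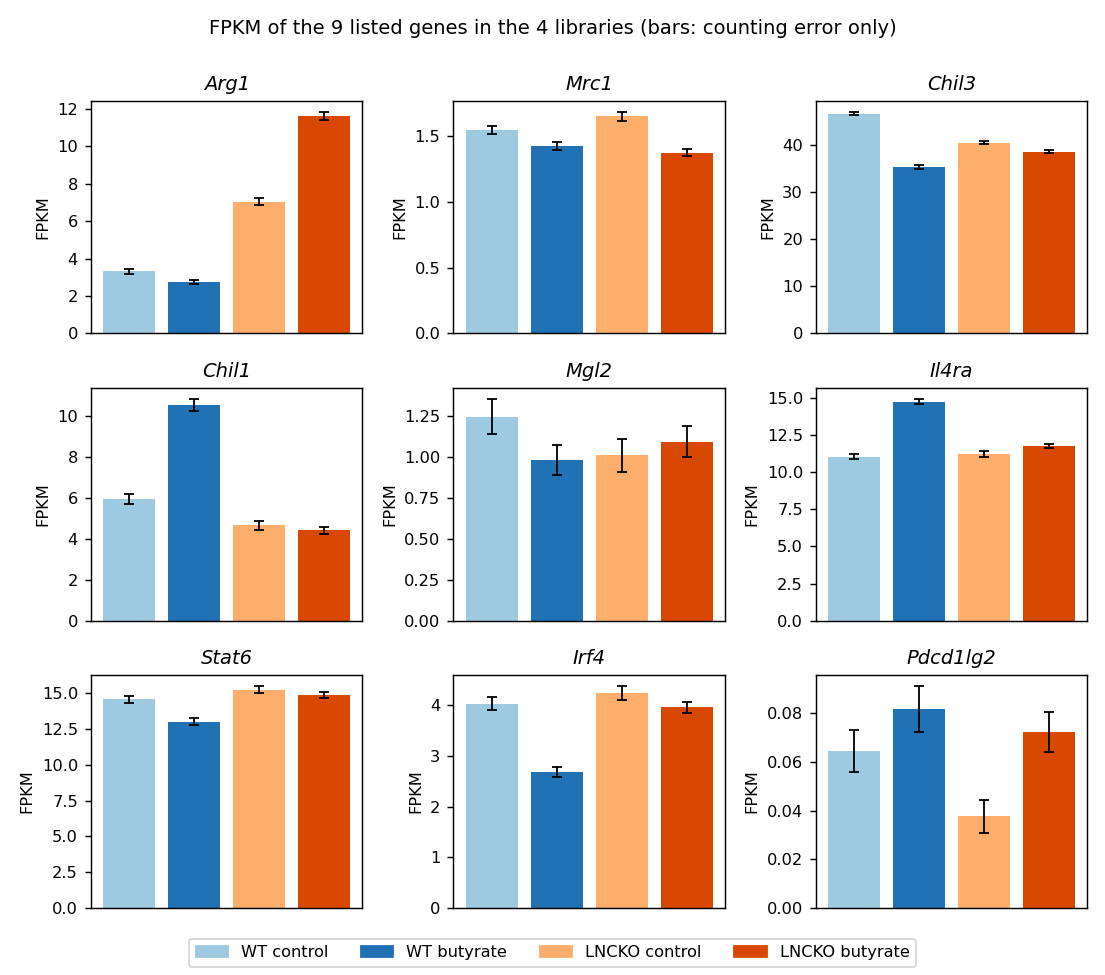
FPKM of the 9 listed genes (y axes, each starting at 0) in the 4 libraries, 1 bar per library, with lines for 95% counting error of the fragments and none for replicates. Arg1 is highest in the LNCKO bars (7.05 and 11.6), Chil1 in WT butyrate (10.5) and Irf4 is lowest in WT butyrate (2.68), while Mrc1 and Stat6 are nearly level.

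The labelled cell type was checked against marker genes. All 10 macrophage markers had fragments in every library, with a summed exon level from 1833 to 2063. Of these, Cd163 was very low, at exon levels from 0.334 to 0.487. The 10 neutrophil and granulocyte precursor markers summed to 6593 to 9622 and the 7 B cell markers to 467 to 621, so the libraries held RNA of other marrow cells too. In bulk RNA, fewer cells of a type and less RNA per cell cannot be told apart. Eosinophil markers summed to between 77.9 and 131 and T and NK cell markers to between 52.9 and 58.0. The sex-linked gene Ddx3y had 65 and 49 fragments in the WT libraries and 6128 and 7764 in the LNCKO libraries. Genotype and sex of the animals thus cannot be told apart in any LNCKO to WT ratio below. The same holds for every difference between the butyrate responses of WT and LNCKO.

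With butyrate in WT, Chil1 was higher and Irf4 lower by at least 1.5-fold, and the other 7 genes lay between. That is 1 of 9 genes past 1.5-fold higher, against 3.33% of all genes, and 1 of 9 past 1.5-fold lower, against 2.92%. The median log2 ratio of the 9 genes was -0.16, and that of all genes was -0.06. Below 0 were 6 of the 9. With butyrate in LNCKO, Arg1 and Pdcd1lg2 were higher by at least 1.5-fold, 2 of 9 genes against 1.64% of all genes, and 0 of 9 were lower by that fold, against 0.898%. The median of the 9 was -0.04 and that of all genes was -0.02. The direction was the same in both genotypes for 6 of the 9 genes (66.7%) and for 56.0% of all genes.

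**Figure D2:**
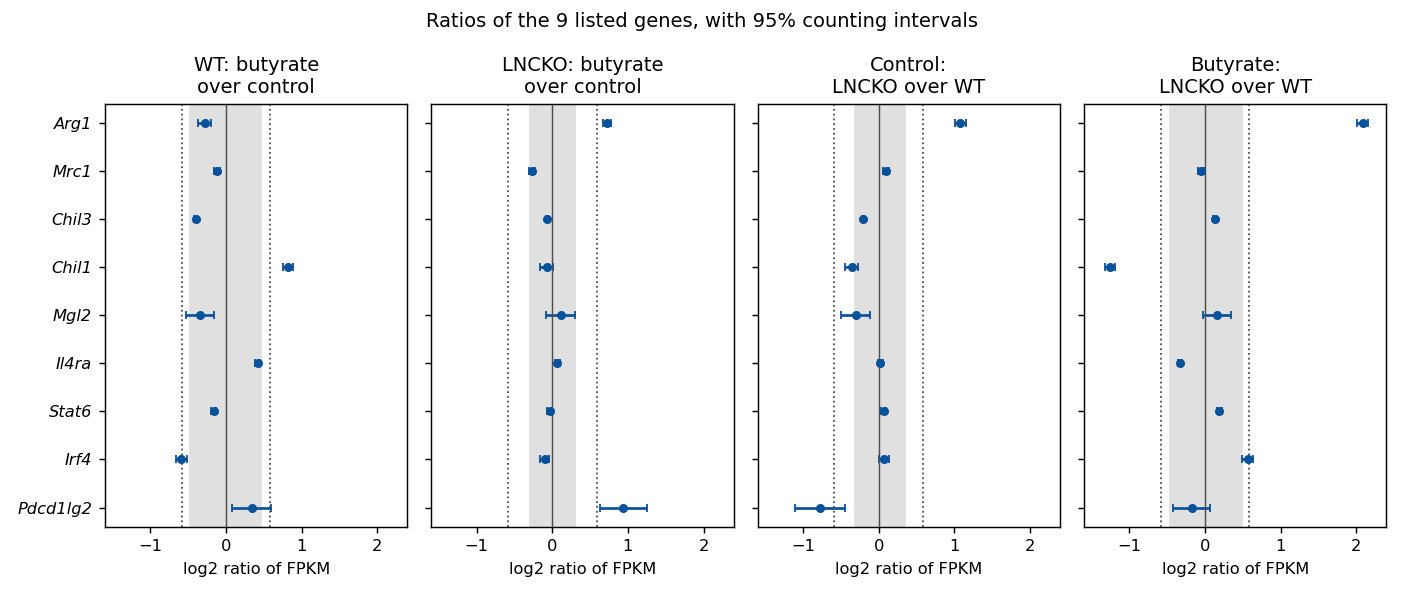
Log2 ratio of FPKM (x axes) of each listed gene in 4 comparisons, points with 95% counting intervals, over a grey band from the 5th to the 95th percentile of all genes, with dotted lines at 1.5-fold. Arg1 lies right of the band in 3 panels (1.65-fold, 2.12-fold and 4.24-fold) and Chil1 right of it with butyrate in WT (1.77-fold) and left of it in LNCKO against WT with butyrate (0.419-fold).

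Without butyrate, LNCKO differed from WT by at least 1.5-fold in Arg1, which was higher, and in Pdcd1lg2, which was lower. These are 1 of 9 in each direction, against 1.58% of all genes higher and 1.9% lower. The 9 genes had a median log2 ratio of 0.02, as had all genes. With butyrate, Arg1 was again higher in LNCKO, and Chil1 was lower, 1 of 9 in each direction against 3.32% higher and 3.17% lower among all genes. The median was 0.13, and 0.05 over all genes. These LNCKO to WT comparisons use the same 4 libraries as the butyrate ratios, so they are no separate evidence.

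The receptor chain and its transcription factor stayed within 1.5-fold in all 4 comparisons. Il4ra (chr7:125552120-125579474, plus strand) had FPKM of 11.04 and 14.7 in WT without and with butyrate, and of 11.2 and 11.8 in LNCKO. WT butyrate stood above the other 3 libraries, which lay close together. The ratio with butyrate was 1.34 in WT (95% counting interval 1.31 to 1.36) and 1.05 in LNCKO (1.03 to 1.07). In the annotation Il4ra shares 571 exon bases with the antisense gene Gm44876, and whether the counting used strand is not given in the sources used here.

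Stat6 (chr10:127642986-127660957, plus strand), the factor that the receptor activates, had the narrowest range of the 9 genes. Its FPKM was 14.6, 13.01, 15.2 and 14.9 in the 4 groups, a highest to lowest ratio of 1.17. WT butyrate was the lowest library. Stat6 shares 40 exon bases with Nab2 on the opposite strand. Activation of STAT6 is by phosphorylation, which RNA levels do not measure.

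Of the 13 genes fixed for IL-4 and IL-13 signalling, 10 passed the filter on low values and none of these 10 was past 1.5-fold in any of the comparisons, Il4ra and Stat6 included. At 0.898% to 4.23% of all genes past 1.5-fold in a direction, a count of 0 of 10 does not set the list apart. Beside Il4ra, the ratio farthest from 1 with butyrate in WT was that of Jak2, a Janus kinase, at 0.76-fold. With butyrate in LNCKO it was that of Il13ra1, the IL-13 receptor chain that pairs with IL-4 receptor alpha, at 1.19-fold. The cytokine gene Il4 itself had 32, 32, 60 and 63 fragments, under the filter, and Il13 and the decoy receptor gene Il13ra2 had 0 in all 4 libraries. These low counts gave a higher level of Il4 in both LNCKO libraries than in both WT libraries.

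Irf4 (chr13:30749226-30766976, plus strand) encodes a transcription factor of alternatively activated macrophages and also of B cells, plasma cells and dendritic cells. In WT its FPKM was 4.03 without and 2.68 with butyrate, and in LNCKO it was 4.24 and 3.96. WT butyrate alone was low, and the other 3 libraries lay within a narrow range. The ratio with butyrate was 0.664 in WT (0.633 to 0.697), rank 323 from the lowest of 11250 genes, and 0.932 in LNCKO (0.894 to 0.973). The WT ratio is barely past 1.5-fold and falls short of it once libraries are rescaled by their median ratio. Markers of B cells moved the same way. All 7 B cell markers were lower with butyrate in WT, with a median log2 ratio of -0.40, and their summed exon level was 605 without and 467 with butyrate in WT, and 617 and 621 in LNCKO. The 5 plasma cell markers summed to between 121 and 126 in the 4 libraries, most of it from Xbp1, at 77.9 to 84.0. With butyrate in WT, 2 of the 5 were higher and 3 lower. Of the 8 dendritic cell markers past the filter, 6 were lower with butyrate in WT and 8 in LNCKO. The part of these cells in the Irf4 ratio was not tested.

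Other regulators in the list fixed for alternative activation also passed 1.5-fold in WT. Of the 11 genes, Irf4 included, 2 were past 1.5-fold higher and 3 past 1.5-fold lower with butyrate in WT, and 0 were past it with butyrate in LNCKO. Among all genes the shares past it, higher and then lower, came to 3.33% and 2.92% for WT and to 1.64% and 0.898% for LNCKO. Ppargc1b, a coactivator of oxidative metabolism, was 1.97-fold and Myc, a growth regulator, 1.88-fold with butyrate in WT. Pparg, a nuclear receptor of lipid metabolism, was 0.55-fold, as was Egr2, an early growth response factor that macrophages induce under IL-4. In LNCKO against WT without butyrate, Ppargc1b was 2.045-fold and Egr2 1.53-fold, the 2 genes of 11 past 1.5-fold higher, and 0 were lower. Among all genes 1.58% were past it higher and 1.9% lower. With butyrate, Egr2 was 2.22-fold and Pparg 1.81-fold in LNCKO against WT. Ppargc1b rests on few fragments, 93 in WT control.

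Among the effector genes, Arg1 had the widest range. Arg1 (chr10:24915221-24927484, minus strand) had FPKM of 3.33 and 2.74 in WT without and with butyrate, and of 7.05 and 11.6 in LNCKO, from 2305, 1991, 4613 and 9342 fragments. Both LNCKO libraries were above both WT libraries, and within LNCKO the butyrate library was the higher, a highest to lowest ratio of 4.24. The ratio of LNCKO to WT was 2.12 without butyrate (2.01 to 2.22), rank 38 from the highest of 11250 genes, and 4.24 with butyrate (4.04 to 4.45), rank 27. With butyrate Arg1 was 0.823-fold in WT (0.775 to 0.874) and 1.65-fold in LNCKO (1.59 to 1.71), rank 125 from the highest. The log2 response in WT minus that in LNCKO was -1.003 (-1.10 to -0.90), with counting error only.

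Markers of other cell types were also higher in both LNCKO libraries, as Arg1 was. The 5 erythroid markers listed, of 6, summed to exon levels of 7.80, 8.97, 30.7 and 86.6. These sums are small beside the macrophage markers. The 7 basophil and mast cell markers summed to 93.5, 68.5, 144 and 139, and all 6 that passed the filter were higher in LNCKO without butyrate and 5 of 6 with it. Among them Mcpt8, a basophil protease, had 1025, 544, 1676 and 1880 fragments. The part of these cells in the Arg1 ratios was not tested.

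**Figure D3:**
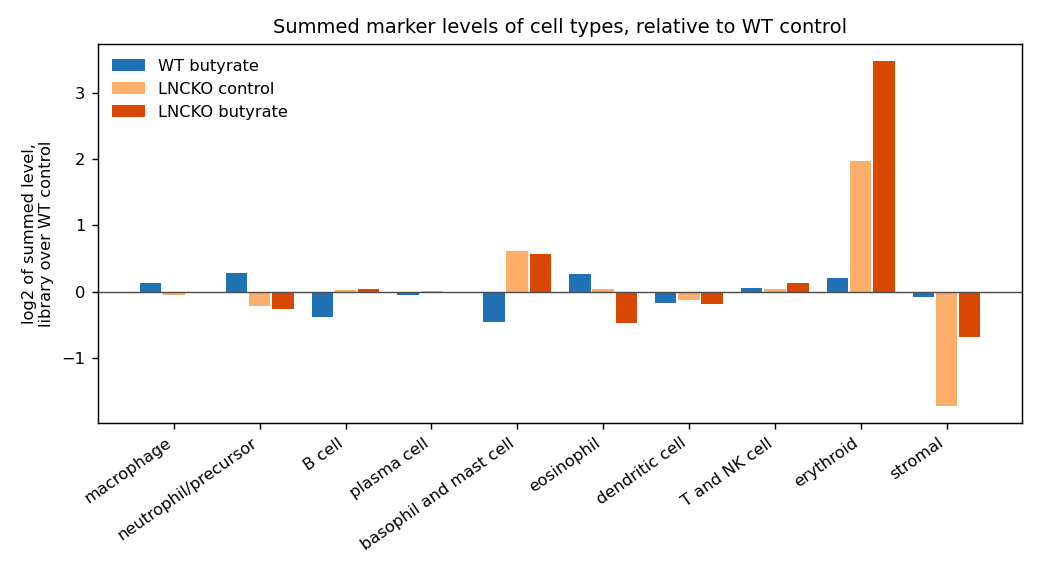
Log2 ratio to WT control (y axis) of the summed exon level of the markers of 10 cell types (x axis), 1 bar for each of the other 3 libraries. Erythroid markers are highest in LNCKO butyrate (86.6 beside 7.80 in WT control), B cell markers are low in WT butyrate (467 beside 605), and macrophage markers stay near 0.

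The butyrate responses of all 9 genes were set beside each other in the same way. In the difference of log2 responses, WT minus LNCKO, 1 of 9 genes was past 1.5-fold higher and 2 of 9 past it lower, against 4.13% and 4.23% of all genes. Chil1 was the gene above, at 0.90, and Arg1 at -1.003 and Pdcd1lg2 at -0.60 were those below. Pdcd1lg2 fell within 1.5-fold with rescaled libraries, at -0.57, and with 0.1 or 1 added to each FPKM, at -0.18 or -0.02. Irf4 at -0.49, Mgl2 at -0.46 and Chil3 at -0.33 were below 0, as was Stat6 at -0.13. Il4ra at 0.35 and Mrc1 at 0.15 were above 0. The median of the 9 was -0.33, beside -0.03 over all genes.

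**Figure D4:**
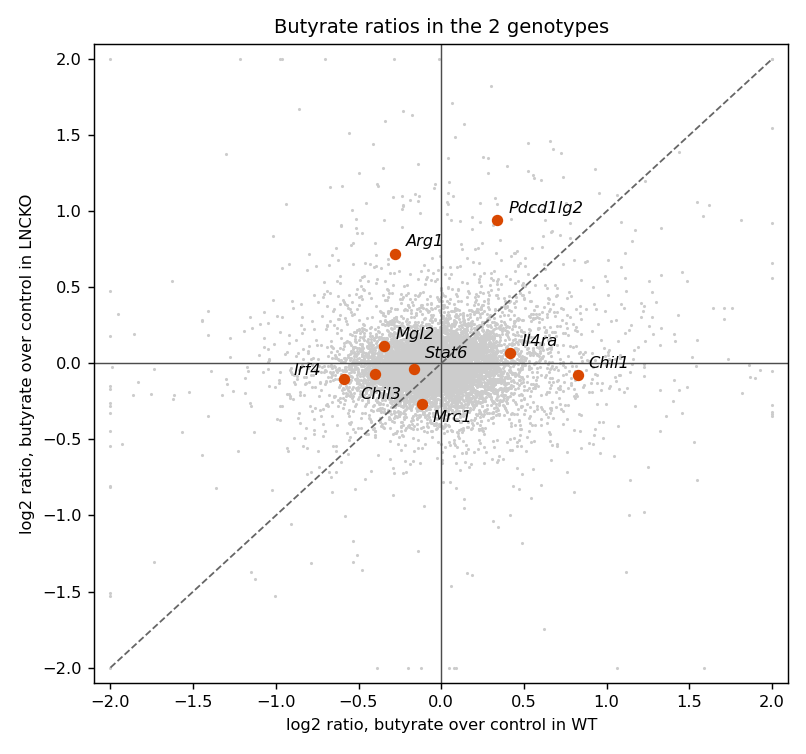
Log2 ratio of butyrate to control in WT (x axis) and in LNCKO (y axis) for the 11250 genes past the filter (grey, values beyond 2 drawn at 2) and the 9 listed genes (orange), with the line of equal ratios dashed. Arg1 lies left of 0 and above 0 (-0.28 and 0.72), and Chil1 lies far to the right at a height near 0 (0.83 and -0.08).

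Arginase competes with the inducible nitric oxide synthase, Nos2, for arginine. Of 12 genes fixed for arginine metabolism, 11 passed the filter. With butyrate in WT 2 were past 1.5-fold higher and 0 lower, namely Nos2 at 2.81-fold and Srm, the spermidine synthase, at 1.77-fold, beside 3.33% and 2.92% of all genes. With butyrate in LNCKO 1 gene was past it higher, Arg1, and 0 lower, beside 1.64% and 0.898% of all genes. In LNCKO against WT without butyrate Nos2 was 3.29-fold and Arg1 2.12-fold, 2 genes higher and 0 lower. Among all genes 1.58% were past it higher and 1.9% lower. With butyrate, Arg1 at 4.24-fold was the 1 gene higher and Srm at 0.54-fold the 1 lower, beside 3.32% and 3.17%. Nos2 had 400, 1178, 1247 and 1377 fragments and was low in WT control alone, whereas Arg1 was low in both WT libraries. Odc1, the ornithine decarboxylase that follows arginase, was 1.32-fold with butyrate in WT and 0.945-fold in LNCKO. In LNCKO against WT, Odc1 was 1.35-fold without butyrate and 0.966-fold with it, so it stayed within 1.5-fold.

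**Figure D5:**
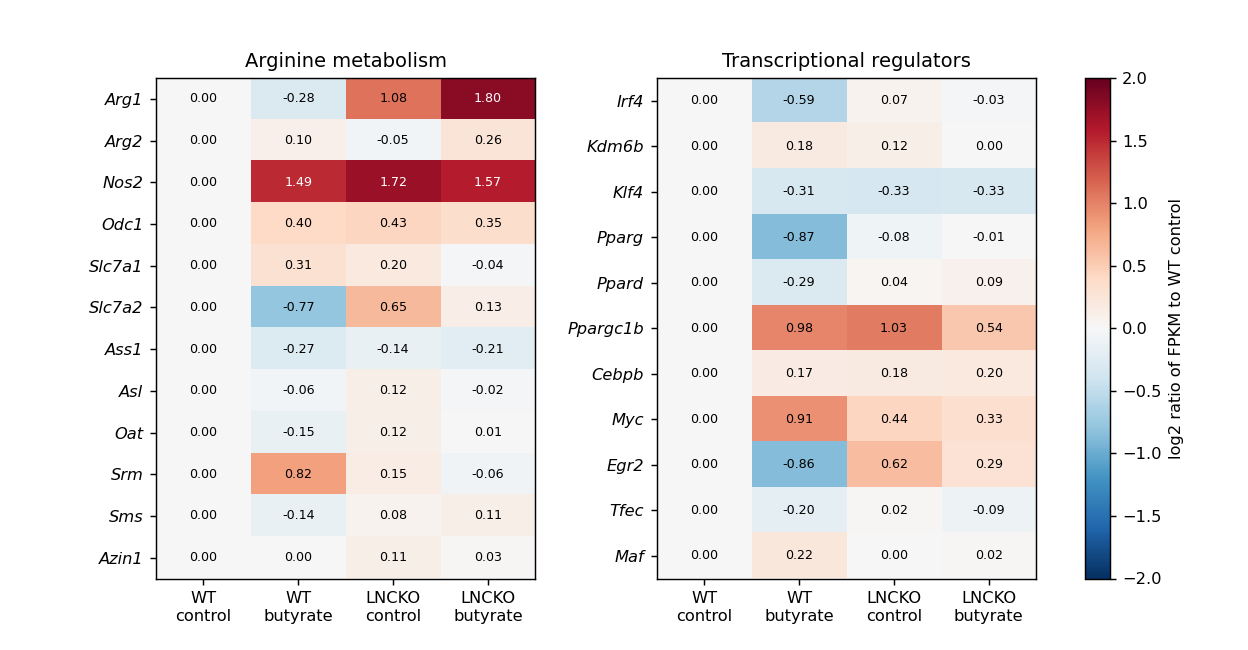
Log2 ratio of FPKM to WT control (colour and printed value, red higher and blue lower) of the genes fixed for arginine metabolism (left) and for transcriptional regulators (right), 1 column per library. Arg1 reads 1.08 in LNCKO control and 1.80 in LNCKO butyrate, Irf4 reads -0.59 in WT butyrate, and Slc7a2, with a mean of fewer than 100 fragments, is drawn but entered no count.

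Chil1 and Chil3 belong to the same family and moved apart with butyrate in WT. Chil1 (chr1:134182176-134190181, plus strand) had FPKM of 5.95 without and 10.5 with butyrate in WT, and of 4.66 and 4.42 in LNCKO. WT butyrate was high and the other 3 libraries were not. Its ratio with butyrate was 1.77 in WT (1.69 to 1.86), rank 173 from the highest, and 0.949 in LNCKO (0.894 to 1.008). LNCKO to WT was 0.782 without butyrate and 0.419 with it (0.399 to 0.440), rank 61 from the lowest.

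Chil3 (chr3:106147554-106167564, minus strand), the most abundant of the 9, had FPKM of 46.7, 35.3, 40.5 and 38.6 in the 4 groups. WT butyrate was the lowest and WT control the highest. The ratio with butyrate was 0.757 in WT (0.747 to 0.766) and 0.953 in LNCKO (0.941 to 0.966), both under the 1.5-fold limit. Chil4, a near-identical relative whose reads the counting could share with Chil3, had 748, 570, 581 and 692 fragments in the same order of libraries and was 0.73-fold with butyrate in WT. The neutrophil and granulocyte precursor markers, which sum to 7905, 9622, 6821 and 6593 in that order, are given beside Chil3 and Chil1 because precursors and neutrophils also make chitinase-like proteins. Their sum was highest in WT butyrate, where Chil1 was highest and Chil3 lowest. S100a9 alone made up 3638, 5100, 2917 and 2901 of these sums. The markers were split, with 7 of 10 higher with butyrate in WT, such as Elane, and 3 lower, namely Ngp, Camp and Ltf. Their part was not tested.

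Mrc1 and Mgl2, which encode sugar-binding receptors, had highest to lowest ratios of 1.20 and 1.27 over the 4 libraries. Mrc1 (chr2:14229392-14332057, plus strand) had FPKM of 1.55, 1.43, 1.65 and 1.38 in the 4 groups. Both butyrate libraries were below both control libraries, at 0.923-fold in WT (0.896 to 0.951) and 0.832-fold in LNCKO (0.809 to 0.857). Mgl2 (chr11:70130329-70137550, plus strand) had 508, 420, 390 and 518 fragments in the same order, or FPKM of 1.25, 0.982, 1.01 and 1.09. WT control was the highest. The ratio with butyrate was 0.788 in WT (0.690 to 0.898) and 1.08 in LNCKO (0.947 to 1.24), where the interval held 1. Clec10a, the close relative of Mgl2, had 1981, 2087, 1849 and 2241 fragments and stayed near a ratio of 1, at 1.00 with butyrate in WT and 0.99 in LNCKO. Cd209a, a marker of dendritic cells that also carry Mgl2, had 139, 47, 80 and 96 fragments, a mean under the filter. The 9 dendritic cell markers summed to exon levels of 84.8, 75.5, 78.2 and 74.9. Of the 8 past the filter, 6 were lower with butyrate in WT and 2 higher, among them Batf3 at 1.62-fold. With butyrate in LNCKO, where Mgl2 was not lower, 8 of these 8 were lower. The part of dendritic cells in the Mgl2 ratios was not tested.

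Pdcd1lg2 (chr19:29410919-29471161, plus strand) was the lowest of the 9 genes. It had 219, 291, 121 and 285 fragments, or FPKM of 0.0645, 0.0816, 0.0376 and 0.0722. LNCKO control was the low library. The ratio with butyrate was 1.27 in WT (1.06 to 1.52) and 1.92 in LNCKO (1.55 to 2.39), rank 85 from the highest. LNCKO to WT was 0.584 without butyrate (0.464 to 0.732) and 0.885 with it (0.749 to 1.05), where the interval held 1. Adding 0.1 or 1 to each FPKM, large beside these values, took both ratios past 1.5-fold to within it, to a log2 ratio of 0.32 or 0.05 with butyrate in LNCKO and of -0.26 or -0.04 in LNCKO against WT without butyrate. Cd274, which encodes PD-L1, the other ligand of PD-1, had FPKM of 13.3, 15.8, 14.5 and 16.8 and was 1.19-fold with butyrate in WT and 1.16-fold in LNCKO. Both ligands were thus higher in the butyrate library of each genotype, and Cd274 stayed within 1.5-fold. Of the 5 genes fixed around PD-1, 4 passed the filter, with 0 past 1.5-fold with butyrate in WT. Among all genes 3.33% were past it higher and 2.92% lower. Besides Pdcd1lg2, 1 of them passed 1.5-fold in any of the 4 ratios, Cd80, a costimulatory ligand, at 0.61-fold in LNCKO against WT with butyrate. In that comparison 3.17% of all genes were lower by that fold. The 7 stromal markers were also lowest in LNCKO control, with summed exon levels of 28.2, 26.6, 8.61 and 17.5, and their part in the Pdcd1lg2 ratios was not tested.

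Retnlg, a resistin-like gene of neutrophils and a relative of Retnla, was 1.47-fold with butyrate in WT. It stands in for no value of Retnla. Of 14 relatives of the members fixed as a list, 12 were listed and 8 passed the filter, with 0 past 1.5-fold with butyrate in either genotype. Among all genes the shares past it, higher and then lower, were 3.33% and 2.92% in WT and 1.64% and 0.898% in LNCKO. In LNCKO against WT 1 relative was past it lower without butyrate, beside 1.9% of all genes. This was Mrc2, a relative of Mrc1 found on fibroblasts, at 0.41-fold. With butyrate 1 was past it lower, Retnlg at 0.55-fold, beside 3.17%.

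Of 21 genes fixed for other effectors of alternative activation, 17 passed the filter. With butyrate in WT, 2 were past 1.5-fold higher and 1 lower, Fn1 (fibronectin) at 2.66-fold, F13a1 (a clotting factor subunit of macrophages) at 1.62-fold and Alox15 (a lipoxygenase) at 0.50-fold, beside 3.33% and 2.92% of all genes. With butyrate in LNCKO 0 of 17 were past it in either direction, beside 1.64% and 0.898%. In LNCKO against WT without butyrate 1 was higher, Cd36, a scavenger receptor, at 1.52-fold. This compares with 1.58% of all genes. With butyrate 3 were higher and 2 lower, beside 3.32% and 3.17% of all genes, and the lowest was Fn1 at 0.35-fold.

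The list of classical activation, the state opposed to the alternative one, was fixed as the counterpart. Of 14 genes, all past the filter, 3 were past 1.5-fold higher and 2 lower with butyrate in WT, among them Nos2, the chemokine Ccl5 at 2.504-fold and the cytokine Il6 at 0.54-fold, beside 3.33% and 2.92% of all genes. With butyrate in LNCKO 1 was higher, Cxcl9 at 2.65-fold, and 0 were lower, beside 1.64% and 0.898% of all genes. Cxcl9 was 1.60-fold with butyrate in WT. In LNCKO against WT without butyrate 2 were higher and 1 lower, beside 1.58% and 1.9% of all genes. With butyrate 1 was higher and 1 lower, beside 3.32% and 3.17%. Il6 was 2.06-fold in LNCKO against WT without butyrate and 3.66-fold with it, higher in both as Arg1 was. Ccl5 was 0.457-fold in LNCKO against WT with butyrate.

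For the 3 genes of widest range, the genes of nearest pattern over the 4 libraries were found by the distance of centred log2 FPKM. Those nearest Arg1 were Mmp12, at a distance of 0.42, then Ifi208 and Cd5l. Those nearest Chil1 were Gpr162, at 0.09, then Mmp28 and Vcan. Those nearest Pdcd1lg2 were Tspan33, at 0.13, then C77080 and Srd5a1. Over 4 libraries such likeness describes the values and nothing more.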

How the data were processed

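RNA of 4 libraries, 1 per group, was sequenced as 100-base paired ends according to the methods. The authors deposited values as FPKM, 1 column per library, without read counts. The submitters' processing notes name STAR 2.5.0c, Picard 1.126, bedtools 2.17.0, HTSeq 0.6.0 and DESeq2 3.0 with the builds GRCm38 and mm10, without saying what each did. Groups came from the sample titles. The columns of the LNCKO libraries carry library names that were matched to the sample descriptions.

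FPKM on the whole genomic span gave whole fragments (within 0.05) for 98.6% of the 16342 genes matched to GENCODE M21, and for 7.48% on exon length. Fragments thus recovered set the filter (mean of at least 100 per library) and the exact Clopper-Pearson 95% intervals of each ratio. These intervals cover counting error only, since each group has 1 library. The fragments also carry no molecular identifiers. The interval of a difference of 2 responses is a Wald interval of the counts. Ratios are plain FPKM ratios with no pseudocount. A gene counted as past the fold at 1.5.

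With 1 library per group no test was run. The members and lists were chosen with earlier results of these data known. The text names the 10 members and at most the 3 genes of a list with the ratios farthest from 1 in a comparison. It also names near-identical relatives, markers, and for the 3 members of widest range the 3 genes of nearest pattern. Il4, Il13, Il13ra2, Retnlg and Odc1 are named beside them, as are Egr2 and Cxcl9 with butyrate in WT. Some of these were added after their values were seen. Alternatives were a pseudocount of 1 or 0.1, rescaled libraries, a mean FPKM of at least 1, no filter, and a fold of 2. The steps were tested on simulated data. The tools were pandas 2.3.3, scipy 1.17.1 and numpy 2.4.6 in Python 3.11.15, with matplotlib 3.10.9 for figures. The lncLy6c gene itself was not analysed here, so the knockout was not checked in these libraries.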

Additional observations from a re-analysis of the deposited data

Results flagged for a closer look

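Arg1 was picked out because its ratio of butyrate to control was below 1 in WT and above 1 in LNCKO. Both counting intervals were clear of 1. The log2 response in WT minus that in LNCKO was -1.003, from 0.823-fold in WT and 1.65-fold in LNCKO. With 1 library per group this difference was not tested, and genotype and sex of the animals cannot be told apart in it.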

How the results depend on the processing

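No paired analysis was possible because each group has 1 library. No result changed direction under any alternative. Adding 1 or 0.1 to each FPKM left 0 of 9 genes past 1.5-fold lower with butyrate in WT, 1 higher with butyrate in LNCKO, 0 lower in LNCKO against WT without butyrate and 1 lower in the difference of responses. A mean FPKM of at least 1, which leaves out the low Pdcd1lg2, gave the last 3 of these counts too, and rescaled libraries gave the first and the last. At 2-fold, 0 genes were higher and 0 lower with butyrate in WT, 0 higher in LNCKO, 0 lower in LNCKO against WT without butyrate, and 0 higher and 1 lower in the difference of responses. The median difference of responses was -0.12 with 1 added, beside -0.33. Of 45 single ratios, 6 moved by over 0.2 (log2) with 1 added, 3 with 0.1 added and 0 with rescaling. Over all genes the 10 counts past 1.5-fold ranged from 101 to 476, from 10 to 61 with 1 added, from 34 to 253 with 0.1 added, from 94 to 542 rescaled, from 17 to 118 of 6807 genes at a mean FPKM of at least 1, and from 556 to 1194 of 13535 genes with no filter. Since FPKM are per genomic span, an added constant flattens long genes such as Pdcd1lg2. With 1 library per group, spread between cultures is unknown, and the counting intervals understate the error.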
